A study of Mus musculus with 6 samples.

Results

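Circular RNAs (circRNAs) of 4 host genes, Cdc14b, Peli2, Magi1 and Erbb2ip, are described here in mouse aorta. The 4 hosts were chosen by their junction reads in these same libraries, because a circRNA of each had appeared higher in ApoE-/- than in wild-type aortae. Every listed circRNA with 1 of these symbols was taken, which gave 25 of 20532 circRNAs and 4 of 7051 host symbols. Total RNA of whole aorta was sequenced in 6 libraries. The high-fat libraries (n = 2) came from ApoE-/- mice that received a high-fat diet for 3 months, starting at 3 months of age. The ApoE-/- chow libraries (n = 2) came from mice of that genotype on chow, and the C57BL/6J libraries (n = 2) from wild-type mice on chow. The strain is C57BL/6 in all 3 groups. ApoE-/- mice lack apolipoprotein E, a ligand for the clearance of cholesterol-rich lipoproteins, in the whole body. The labels give neither the Apoe allele, nor the age of the chow groups, nor whether animals were pooled or each replicate is a separate animal. P-values therefore measure only the spread between these libraries, which may be technical.

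A circRNA forms when the downstream end of an exon is spliced back to an upstream exon, and reads that cross this back-splice (junction reads) come from the circle itself. The host symbol names only the gene in which the circle lies. Cdc14b encodes a dual-specificity phosphatase of the CDC14 family, which in budding yeast drives exit from mitosis. Peli2 encodes a Pellino E3 ubiquitin ligase of Toll-like and interleukin-1 receptor signalling. Magi1 encodes a scaffold of cell-cell junctions with guanylate kinase-like, WW and PDZ domains. Erbb2ip, listed by RefSeq as Erbin, encodes a leucine-rich repeat and PDZ scaffold that binds the receptor ERBB2.

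One circRNA end could be read in sequence, and it is shown because it belongs to the most read of the Cdc14b circRNAs. That circRNA runs from 64243634 to 64248499 on chromosome 13 (GRCm38). Its upstream end falls in a RefSeq promoter window of Cdc14b, 39 bases downstream of an alternative start site at 64248538. It was the only end of the 25 circRNAs in such a window of its host gene. The stretch is given on the minus strand, 5′ to 3′, from RefSeq on GRCm38.p6 (chr13:64248489-64248559), and its last 11 bases lie inside the circle. The capitals mark the 2 bases just before the first base of the circRNA.
Cdc14b 64248499 end: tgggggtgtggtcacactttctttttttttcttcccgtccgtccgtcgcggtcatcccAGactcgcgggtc
These bases are AG, the letters that end most introns, and 14 of the 20 bases before them are C or T. Over the 6 libraries 72 upstream ends fell in a promoter window of their own host gene, and 56 of them (77.8%) directly followed an AG on the gene's strand. With all positions read 1 base further upstream this held for 2 of 72, and 1 base further downstream for 0 of 72. Positions are accordingly printed as the first and last base of the circle, counted from 1.

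The description "higher in ApoE-/- libraries" held on both scales tried for Cdc14b alone. As junction reads per 100000 junction reads of a library, Cdc14b and Magi1 were higher in all 4 ApoE-/- libraries than in both C57BL/6J libraries. Of the 1262 host genes that reached 5 junction reads in at least 2 libraries, 8.64% had this pattern. For Magi1 it rested on a single read in high-fat 2. By junction RPM, junction reads over the total reads of the library, Magi1 was at 0.0131 in high-fat 2, below the 0.0139 of C57BL/6J 1, so that Cdc14b alone kept the pattern (4.68% of host genes). Peli2 had 0 junction reads in high-fat 1, and Erbb2ip was lower in both ApoE-/- chow libraries than in C57BL/6J 1. Since this contrast chose the hosts, its values are descriptions with no test.

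Taken group by group, the hosts fell into different patterns. Both high-fat libraries exceeded both C57BL/6J libraries for Cdc14b, Magi1 and Erbb2ip per 100000 junction reads (23.7% of host genes), and for Cdc14b and Erbb2ip by junction RPM (20.9%). Both ApoE-/- chow libraries exceeded both C57BL/6J libraries for Cdc14b, Peli2 and Magi1 on either scale (17% of host genes per 100000 junction reads and 9.83% by junction RPM). Nothing is read from these shares, which the choice of hosts fixes in part.

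The libraries held between 69130844 and 77352690 reads. Junction reads numbered 34805 and 16511 in high-fat, 14575 and 14519 in ApoE-/- chow, and 26605 and 3706 in C57BL/6J 1 and 2. Interval reads, the deposited count minus the junction reads, totalled 775094 in C57BL/6J 2 and between 1142051 and 1721164 in the other libraries. A single read is therefore worth 27.0 per 100000 junction reads in C57BL/6J 2, and between 2.87 and 6.89 in the other libraries. A count of 0 in C57BL/6J 2 still allows up to 80.9 per 100000 (3 reads). In the file of ApoE-/- chow 1 the column names are those of a C57BL/6J sample, 1 conflict among the 6 libraries, and the label was kept. The ApoE-/- chow samples also have accession numbers out of sequence with the other 4, and the labels do not say whether they were prepared or sequenced apart. Any such difference cannot be told apart from that group. The listed interval of Apoe had 78 and 75 interval reads in the high-fat libraries, 128 and 86 in ApoE-/- chow, against 176 and 140 in C57BL/6J. It lies near the 3′ end of the gene (chromosome 7, 19696367 to 19696437), and with the allele not given it does not check the genotype.

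Smooth muscle markers were present throughout, 7 of 9 listed, with summed interval RPM (interval reads over 1000000 library reads) of 144 and 190 in high-fat, 164 and 124 in ApoE-/- chow, against 188 and 46.8 in C57BL/6J. By interval RPM, marker sums of 3 other cell types were higher in all 4 ApoE-/- libraries than in both C57BL/6J libraries. Of 6122 host genes 10.2% had this pattern on the same scale. C57BL/6J 2 held the fewest interval reads (775094), and the marker sums were not scaled to interval reads. The sum over 6 of 6 endothelial markers was 5.45 and 4.28 RPM in high-fat, 4.55 and 3.96 in ApoE-/- chow, against 3.44 and 2.95 in C57BL/6J. The 3 of 9 macrophage markers listed, Gpnmb, Lyz1 and Mrc1, summed to 11.7 and 10.9 RPM in high-fat, 3.36 and 5.04 in ApoE-/- chow, against 3.18 and 2.31 in C57BL/6J. Cd68, Lyz2, Adgre1, Csf1r, Trem2 and Cd163 had no listed interval. Ryr2 and Myh6, the listed ones of 5 striated muscle markers, summed to 4.06 and 3.32 RPM in high-fat, 3.70 and 3.98 in ApoE-/- chow, against 2.28 and 3.11 in C57BL/6J. Fibroblast markers (3 of 5) overlapped between the genotypes, between 7.41 and 14.6 RPM in ApoE-/- and between 7.12 and 7.98 RPM in C57BL/6J libraries. So did adipocyte markers (4 of 6), between 2.97 and 6.23 RPM in ApoE-/- and between 2.86 and 6.64 RPM in C57BL/6J libraries. Of 3 blood markers the platelet gene Ppbp was listed, and no lymphocyte or Schwann cell marker was. Ppbp had 0.995 and 1.25 RPM in high-fat, 0.142 and 0.172 in ApoE-/- chow, against 0.139 and 0.203 in C57BL/6J. By interval RPM 16.8% of host genes were higher in both high-fat than in both ApoE-/- chow libraries. The part of these cells in the values of the 4 hosts was not tested. In bulk tissue, fewer cells of a type and less RNA per cell cannot be told apart.

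The 25 circRNAs were divided among the 4 genes as follows. On GRCm38, Cdc14b (chromosome 13, 64192545 to 64274988, minus strand) had 4 and Peli2 (chromosome 14, 48120777 to 48281578, plus strand) had 5. Magi1 (chromosome 6, 93675453 to 94283929, minus strand) had 9 and Erbb2ip (chromosome 13, 103818786 to 103920586, minus strand) had 7. All lay within the gene bounds. Their shortest span was 186 bp, their median 5143 bp and their longest 34284 bp, with a median of 1822.5 bp over all circRNAs. An end was shared with another circRNA of the same gene by 16 of the 25. Junction reads were confined to 1 library for 16 of the 25 (64%) and for 80.5% of all circRNAs, and none of the 25 had them in all 6. The genes measure 82444 bp for Cdc14b, 101801 bp for Erbb2ip, 160802 bp for Peli2 and 608477 bp for Magi1, with a median of 47579.5 bp over 6592 host genes. Of the 652 junction reads, 598 came from the 7 circRNAs with at least 10, and the other 18 had between 1 and 8 each.

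**Figure D1:**
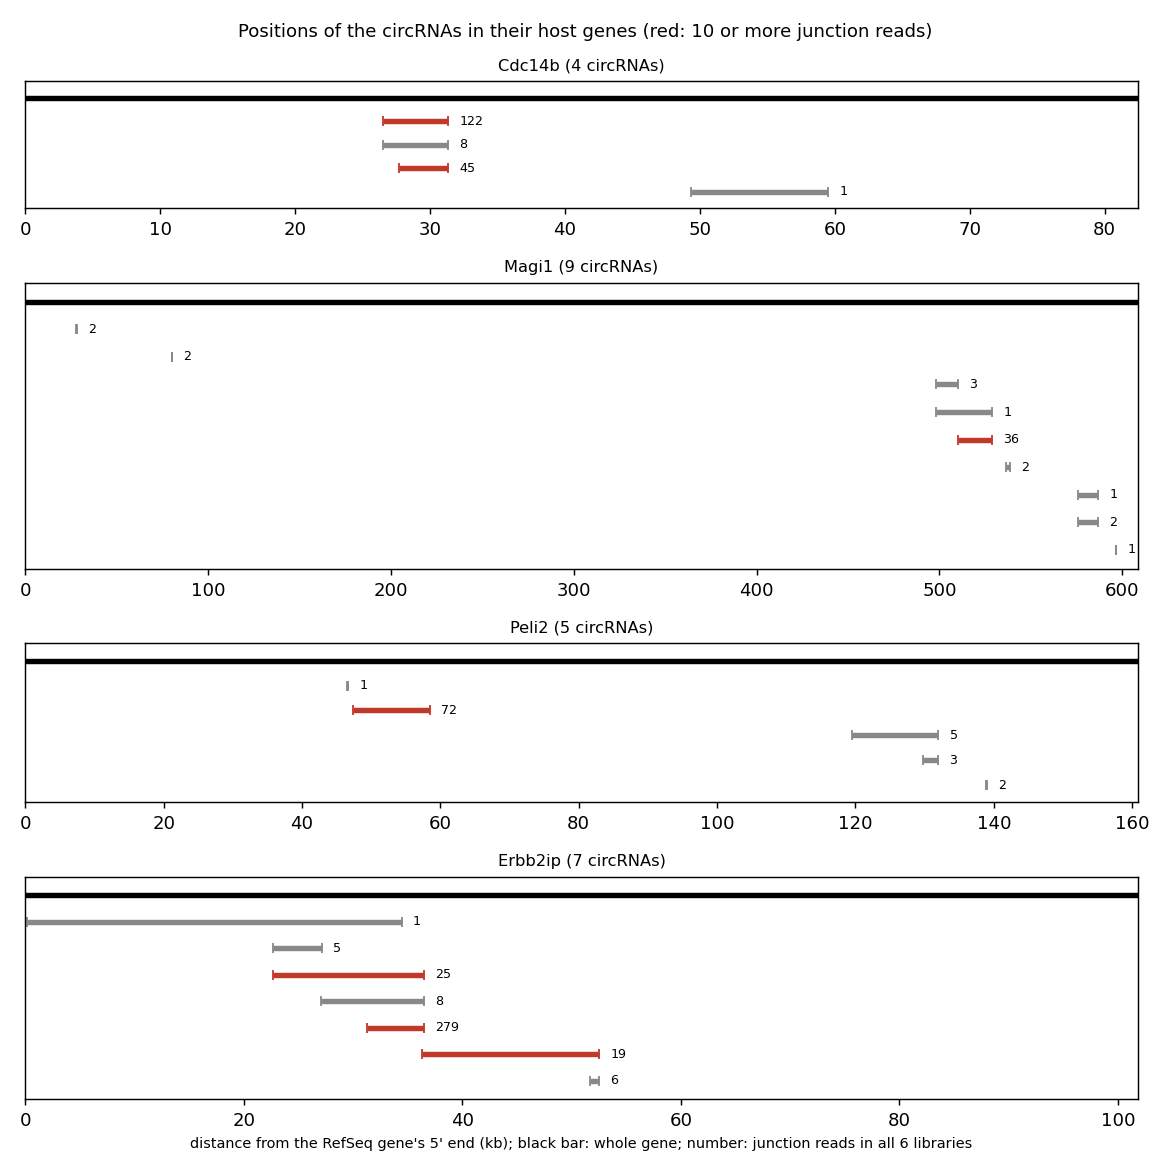
Position of each of the 25 circRNAs in its host gene, as distance in kb from the 5′ end of the gene, with the whole gene as a black bar and the junction reads of all 6 libraries as numbers; red marks the 7 circRNAs with at least 10 reads. In each gene 1 circRNA held most reads: 122 in Cdc14b, 72 in Peli2, 36 in Magi1 and 279 in Erbb2ip.

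Cdc14b junction reads were higher in every library of both ApoE-/- groups than in C57BL/6J. The counts were 72 and 27 in high-fat, 40 and 22 in ApoE-/- chow, against 14 and 1 in C57BL/6J. Per 100000 junction reads the means were 185 ± 30.6 in high-fat, 213 ± 86.9 in ApoE-/- chow and 39.8 ± 18.1 in C57BL/6J (SD, n = 2 each). The lowest ApoE-/- library, ApoE-/- chow 2, stood at 152 (95% exact binomial interval 95.0 to 229) and the highest C57BL/6J library at 52.6 (28.8 to 88.3). The single read of C57BL/6J 2 gives 27.0, with a wide interval of 0.683 to 150. Intervals and floors cover counting error only, since reads without molecular identifiers are not independent molecules. The order of high-fat and ApoE-/- chow was within their spread.

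**Figure D2:**
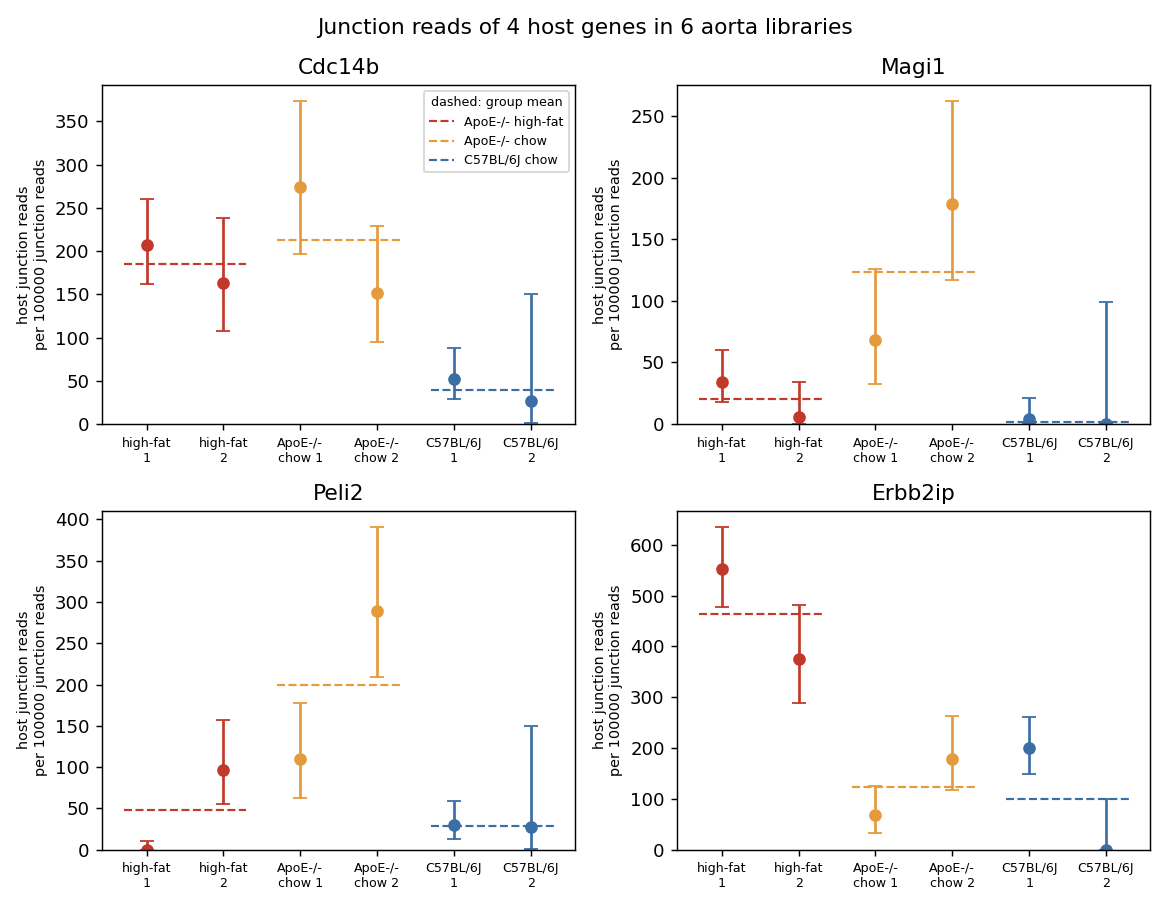
Junction reads of each host gene per 100000 junction reads in the 6 libraries; points are libraries, bars are 95% exact binomial intervals and dashed lines are group means. Cdc14b lies between 152 and 274 in the 4 ApoE-/- libraries and at 52.6 and 27.0 in C57BL/6J, while Erbb2ip lies at 552 and 376 in high-fat and at most at 199 elsewhere.

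The Cdc14b isoforms did not share 1 pattern. Of the 4, 3 meet at the downstream end 64243634 and differ in their upstream end. The 4866 bp circRNA, which reaches 64248499, had 54 and 16 junction reads in the high-fat libraries, 29 and 22 in ApoE-/- chow, against 0 and 1 in C57BL/6J. The 3685 bp circRNA, which reaches 64247318, had 18 and 10 in high-fat, 3 and 0 in ApoE-/- chow, against 14 and 0 in C57BL/6J. The longer circle was thus high in all 4 ApoE-/- libraries, and the shorter one gave all 14 Cdc14b junction reads of C57BL/6J 1. Summed by genotype, the 4866 bp circRNA had 121 of 80410 junction reads in ApoE-/- and 1 of 30311 in C57BL/6J libraries.

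Of the junction reads at that shared end, the 4866 bp circRNA took 75% in high-fat 1 (63.4 to 84.5%, exact binomial) and 61.5% in high-fat 2 (40.6 to 79.8%). In ApoE-/- chow it took 72.5% (56.1 to 85.4%) and 100% (84.6 to 100%). In C57BL/6J 1 it took 0 of 14 (0 to 23.2%). C57BL/6J 2 had 1 read at this end, from the 4866 bp circRNA, so the 2 C57BL/6J libraries did not show the same isoform. A 4833 bp circRNA, which reaches 64248466 and so ends 33 bp inside the longest, had 8 reads in ApoE-/- chow 1 and none elsewhere. The remaining circRNA, 64215500 to 64225648, had 1 junction read, in high-fat 2.

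Peli2 was highest in ApoE-/- chow. Its junction reads numbered 0 and 16 in high-fat, 16 and 42 in ApoE-/- chow, against 8 and 1 in C57BL/6J. Per 100000 junction reads the means were 48.5 ± 68.5 in high-fat, 200 ± 127 in ApoE-/- chow and 28.5 ± 2.18 in C57BL/6J (SD, n = 2 each). The 0 of high-fat 1, the library with most junction reads, allows up to 8.62 per 100000 (3 reads). High-fat 2 stood at 96.9 and the C57BL/6J libraries at 30.1 and 27.0. The 27.0 of C57BL/6J 2 is a single read with an exact binomial interval of 0.683 to 150, so its order relative to either high-fat library was not detectable at this depth. The difference between high-fat and C57BL/6J was within the spread of high-fat.

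A single circRNA gave nearly all Peli2 junction reads in the ApoE-/- libraries. The 11080 bp circRNA, 48168197 to 48179276, had 0 and 16 in high-fat, 16 and 40 in ApoE-/- chow, against 0 and 0 in C57BL/6J. Its mean in ApoE-/- chow was at least 4.18-fold higher than in C57BL/6J, with C57BL/6J set to 3 reads per library. The Peli2 reads of C57BL/6J lay at other back-splices. Circles from 48240210 and from 48250510 to a shared end at 48252765 had 5 and 3 junction reads, all in C57BL/6J 1. The circRNA from 48167251 to 48167485 had 1 in C57BL/6J 2, and that from 48259667 to 48259853 had 2 in ApoE-/- chow 2. No Peli2 circRNA had junction reads in both genotypes. However, 4 of the 5 had them in 1 library only, as did 80.5% of all circRNAs, and so could not appear in both.

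Magi1 was likewise highest in ApoE-/- chow. Its junction reads numbered 12 and 1 in high-fat, 10 and 26 in ApoE-/- chow, against 1 and 0 in C57BL/6J. Per 100000 junction reads the means were 20.3 ± 20.1 in high-fat, 124 ± 78.1 in ApoE-/- chow and 1.88 ± 2.66 in C57BL/6J (SD, n = 2 each). High-fat exceeded C57BL/6J by less than its own spread. The 18676 bp circRNA, 93755014 to 93773689, had 10 and 1 junction reads in the high-fat libraries, 10 and 15 in ApoE-/- chow, against 0 and 0 in C57BL/6J. Its mean was 1.86-fold higher in ApoE-/- chow than in C57BL/6J, with C57BL/6J set to 3 reads per library. Its mean in high-fat lay under that floor. The floor of C57BL/6J 2 alone, 80.9 per 100000, is above the 68.6 of ApoE-/- chow 1.

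The other 8 Magi1 circRNAs had 1 to 3 junction reads, each in 1 library. ApoE-/- chow 2 held 11 of these 14 reads, high-fat 1 held 2 and C57BL/6J 1 held 1. A 30633 bp circRNA joins the downstream end of the 18676 bp circle to 93785646 and had 1 read in high-fat 1. Circles from 93697194 ended at 93708217 and at 93708220, 3 bp apart, with 2 reads in ApoE-/- chow 2 and 1 in C57BL/6J 1.

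Erbb2ip was high in both high-fat libraries and lower in the other 4. Its junction reads numbered 192 and 62 in high-fat, 10 and 26 in ApoE-/- chow, against 53 and 0 in C57BL/6J. Per 100000 junction reads this was 552 (477 to 635, exact binomial) and 376 (288 to 481) in high-fat, and 68.6 (32.9 to 126) and 179 (117 to 262) in ApoE-/- chow. In C57BL/6J it was 199 (149 to 260) and 0 (0 to 99.5). The means were 464 ± 125 in high-fat, 124 ± 78.1 in ApoE-/- chow and 99.6 ± 141 in C57BL/6J (SD, n = 2 each). The order of the chow groups was within their spread.

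The 5143 bp Erbb2ip circRNA, 103884143 to 103889285, held 279 of the gene's 343 junction reads. It had 163 and 52 in high-fat, 10 and 19 in ApoE-/- chow, against 35 and 0 in C57BL/6J. Of the reads at its downstream end it took 91.6% and 92.9% in high-fat, 100% and 76% in ApoE-/- chow, against 81.4% in C57BL/6J 1, with none at that end in C57BL/6J 2. This share overlapped between all groups with reads. The 13786 bp circRNA, 103884143 to 103897928, had 15 and 2 junction reads in the high-fat libraries, 0 and 0 in ApoE-/- chow, against 8 and 0 in C57BL/6J. Its mean was 1.34-fold higher in high-fat than in ApoE-/- chow, with ApoE-/- chow set to 3 reads per library. This rested on high-fat 1, at 43.1 per 100000 junction reads. High-fat 2, at 12.1, lay under the ApoE-/- chow floor of 20.6. The third circRNA at this end, of 9337 bp, was seen in high-fat 2 (2 junction reads) and ApoE-/- chow 2 (6 junction reads).

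The 16218 bp Erbb2ip circRNA, 103868043 to 103884260, lies further downstream. It had 9 and 0 junction reads in the high-fat libraries, 0 and 0 in ApoE-/- chow, against 10 and 0 in C57BL/6J, and so was seen only in the 2 libraries with most junction reads. An 856 bp circle from the same downstream end had 6 in high-fat 2. A 4512 bp circle that shares the upstream end of the 13786 bp one had 4 in high-fat 1 and 1 in ApoE-/- chow 2. The longest, 103886141 to 103920424, had 1 in high-fat 1.

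**Figure D3:**
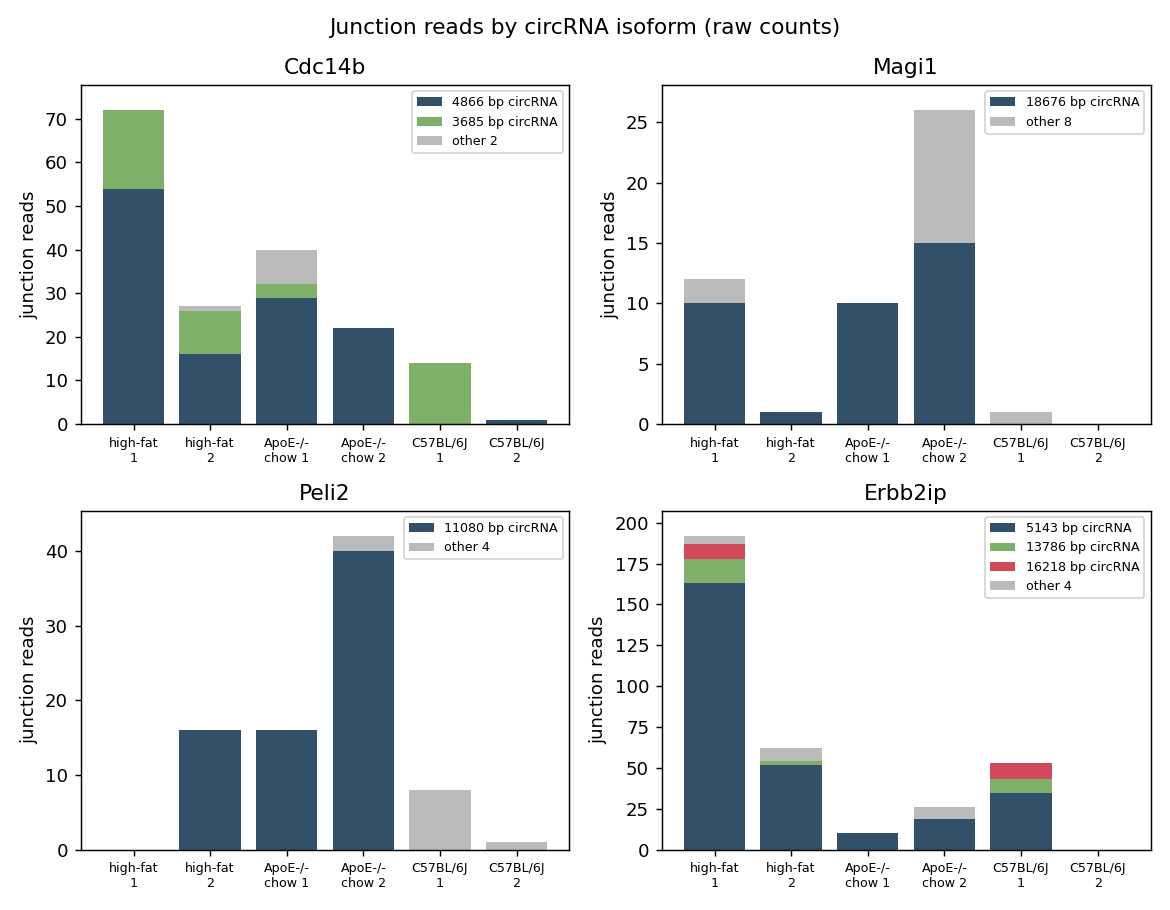
Raw junction reads per library, stacked by circRNA; coloured parts are the circRNAs with at least 10 reads, named by their span, and grey is the sum of the others. In Cdc14b the 4866 bp circRNA has 54, 16, 29 and 22 reads in the ApoE-/- libraries and 0 and 1 in C57BL/6J, and Erbb2ip has 192 and 62 reads in high-fat and at most 53 elsewhere.

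Summed over each host, the other reads of these intervals overlapped between the ApoE-/- and C57BL/6J libraries for all 4 hosts, and 10.2% of 6122 host genes had all 4 ApoE-/- libraries above both C57BL/6J libraries. The main circles of Magi1 and Erbb2ip added no interval reads to these sums. Most Cdc14b interval reads lay outside its 4866 bp circle. Interval reads can stem from linear, intronic or circular RNA. Peli2 had 3.65 and 3.09 interval RPM in high-fat, 3.57 and 3.33 in ApoE-/- chow, against 2.84 and 3.78 in C57BL/6J. All groups overlapped for Peli2, whose junction reads numbered between 0 and 42 in the same libraries. Cdc14b had 0.550 and 0.353 interval RPM in high-fat, 0.401 and 0.451 in ApoE-/- chow, against 0.390 and 0.347 in C57BL/6J. Magi1 had 0.877 and 0.522 in high-fat, 0.827 and 0.981 in ApoE-/- chow, against 0.613 and 0.723 in C57BL/6J. Only ApoE-/- chow stood clear of C57BL/6J for these 2 hosts. Erbb2ip had 0.969 and 0.483 interval RPM in high-fat, 0.504 and 0.278 in ApoE-/- chow, against 0.571 and 0.492 in C57BL/6J, again with overlap of all groups.

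By interval RPM none of the 4 hosts had both high-fat libraries above both C57BL/6J libraries (22.1% of host genes had). Cdc14b and Magi1 had both ApoE-/- chow libraries above both C57BL/6J libraries (19.1%). As a share of the interval reads of a library, none of the 4 hosts had all 4 ApoE-/- libraries (4.75% of host genes), both high-fat libraries (8.58%) or both ApoE-/- chow libraries (10.8%) above both C57BL/6J libraries. The log2 difference of ApoE-/- over C57BL/6J with TMM scaling was 0.038 for Cdc14b, -0.13 for Peli2, 0.052 for Magi1 and -0.22 for Erbb2ip. With library totals as the scale, Cdc14b was at 0.25, Magi1 at 0.25, and Peli2 and Erbb2ip turned to 0.044 and 0.0048, while the median of all host genes moved to 0.16. By junction reads the same log2 differences were 2.18 for Cdc14b, 1.72 for Peli2, 3.82 for Magi1 and 1.01 for Erbb2ip, with a median of 0.14 over all host genes.

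**Figure D4:**
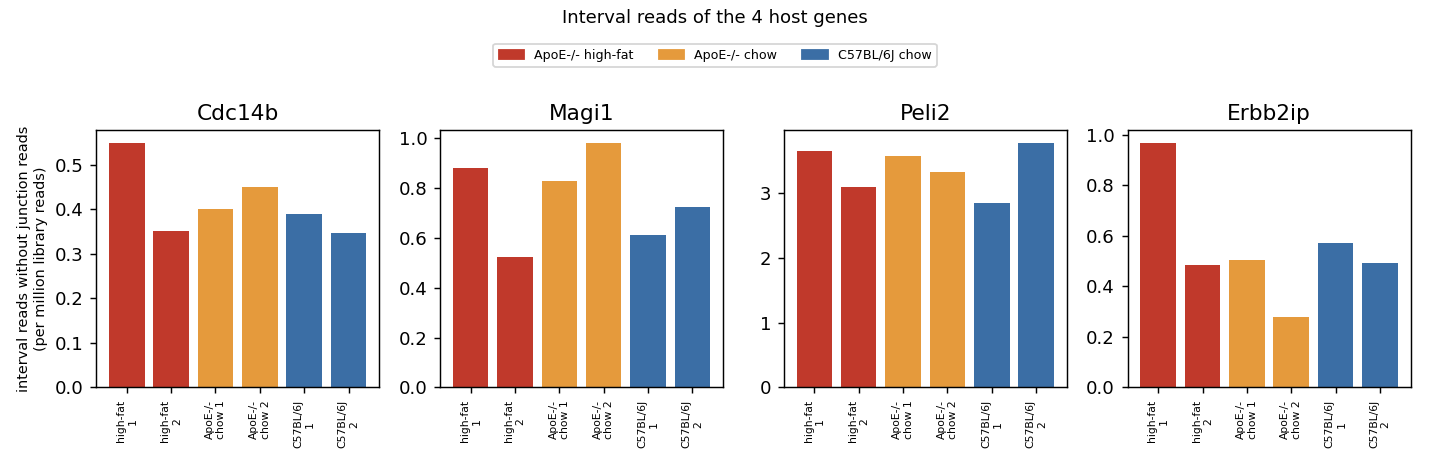
Interval reads without junction reads as RPM for the 4 host genes; each bar is 1 library. Peli2 lies between 2.84 and 3.78 in all 6 libraries, and no host has all 4 ApoE-/- libraries above both C57BL/6J libraries.

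Interval reads were spread unevenly over the circRNAs. Of the 25, 12 lie wholly under other listed intervals, and 10 of these had no interval read in any library, while the other 13 all had some. The main circles of Magi1 and Erbb2ip and the 3685 bp circle of Cdc14b are among the 10. The 11080 bp Peli2 interval had 239 and 211 interval reads in the high-fat libraries, 257 and 223 in ApoE-/- chow, against 179 and 226 in C57BL/6J, most of that gene's total. The 4866 bp Cdc14b interval had 28 and 8 in high-fat, 6 and 9 in ApoE-/- chow, against 4 and 2 in C57BL/6J. These few raw reads were more in every ApoE-/- library than in either C57BL/6J library, and the share of circRNAs with this order was not computed. Most other Cdc14b interval reads lay between 64215500 and 64225648, with 14 and 19 in high-fat, 25 and 25 in ApoE-/- chow, against 24 and 22 in C57BL/6J.

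In Erbb2ip the interval reads lay mostly in the 34284 bp interval, with 39 and 28 in high-fat, 33 and 18 in ApoE-/- chow, against 30 and 29 in C57BL/6J. That interval overlaps D130037M23Rik on the opposite strand, and without strand reads of both genes cannot be told apart. The 13786 bp interval had 26 and 2 in high-fat, 0 and 0 in ApoE-/- chow, against 7 and 4 in C57BL/6J. The 16218 bp interval had 9 and 7 in high-fat, 6 and 3 in ApoE-/- chow, against 4 and 1 in C57BL/6J. In Magi1 the interval from 93745434 to 93747374 was the fullest, with 30 and 26 in high-fat, 30 and 37 in ApoE-/- chow, against 33 and 25 in C57BL/6J. The one from 94203586 to 94203836 overlaps the lncRNA genes 4930511A08Rik and Gm52867.

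Junction reads made up 48.6% of all reads assigned to Cdc14b over the 6 libraries, 5.22% for Peli2, 12.9% for Magi1 and 58.2% for Erbb2ip. These shares leave out any non-junction reads of the 10 circRNAs without interval reads, the main circles of Magi1 and Erbb2ip among them, and so are not set against other genes. For Cdc14b this was 63.2% and 50% in high-fat, 56.3% and 39.3% in ApoE-/- chow, against 33.3% and 4% in C57BL/6J. For Erbb2ip it was 72.2% and 62.6% in high-fat, 20.4% and 55.3% in ApoE-/- chow, against 56.4% and 0% in C57BL/6J.

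The diet comparison is not the one that chose the hosts, and it was tested. The choice used the same junction reads, so the junction values of the hosts in the diet comparison are not independent of it. The diet comparison asks what differs between ApoE-/- aortae after a high-fat diet and on chow. It used edgeR's quasi-likelihood test over all host genes and a Benjamini-Hochberg adjusted p under 0.05. By junction reads none of the 4 hosts passed, and 1 of 1262 host genes did (0.0792%; 55 had an unadjusted p under 0.05, and DESeq2 called 0). Erbb2ip was higher in both high-fat libraries than in both ApoE-/- chow libraries, with a log2 difference of 1.99 (SE 0.78; edgeR, adjusted p = 0.801). Magi1 was lower in both high-fat libraries, at -2.38 (SE 1.35), and so was Peli2, at -2.09 (SE 1.11; edgeR, adjusted p = 1.00 each). Cdc14b was at -0.10 (SE 0.86; edgeR, adjusted p = 1.00). The median over all host genes was 0.19. Per 100000 junction reads 21.6% of host genes were higher in both high-fat libraries, as Erbb2ip was, and 13.3% lower, as Magi1 and Peli2 were. By junction RPM Erbb2ip kept its order (34.3% of host genes), while none of the 4 was lower in both (4.28%).

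Over the alternatives the adjusted p of Erbb2ip ran between 0.0839, without C57BL/6J 2, and 1.00. Without ApoE-/- chow 1, whose columns carry a C57BL/6J name, the log2 differences by junction reads were 1.44 for Erbb2ip and 0.36 for Cdc14b. Among 1015 circRNAs tested 1 passed (0.0985%; 54 had an unadjusted p under 0.05, and DESeq2 called 0). The smallest adjusted p of the hosts' 7 tested circRNAs belonged to the 5143 bp circle of Erbb2ip, at a log2 difference of 2.13 (SE 0.97; edgeR, adjusted p = 0.737).

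By interval reads none of the 4 hosts passed either, and 0 of 6122 host genes did (0%; 125 had an unadjusted p under 0.05, and DESeq2 called 2). The log2 differences were 0.83 (SE 0.50) for Erbb2ip, -0.42 (SE 0.46) for Magi1, -0.047 (SE 0.46) for Peli2 and 0.040 (SE 0.53) for Cdc14b (edgeR, adjusted p = 0.999 each). None of the 4 separated high-fat from ApoE-/- chow by interval RPM (16.8% of host genes were higher and 11.7% lower without overlap). As a share of interval reads none was higher (7.09%), and Peli2 and Magi1 were lower (24.4%).

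**Figure D5:**
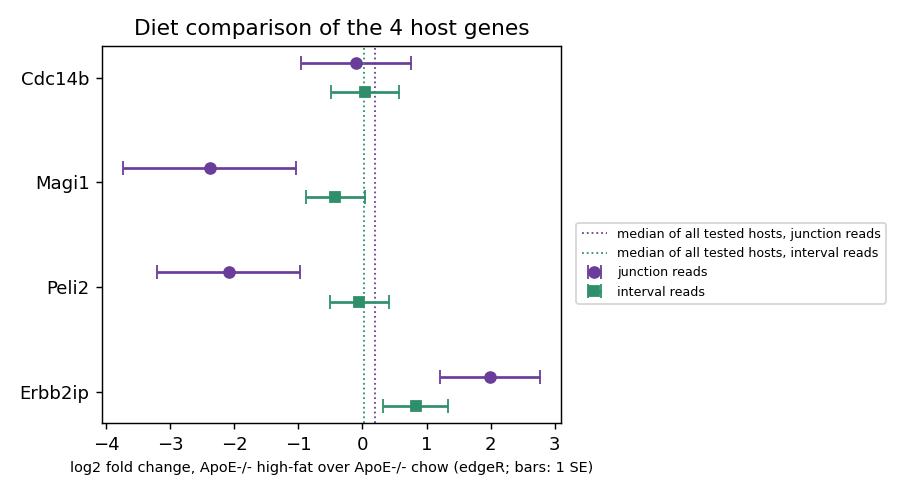
Log2 fold change of high-fat over ApoE-/- chow for the 4 host genes by junction reads (circles) and interval reads (squares), with bars of 1 SE; dotted lines are the medians of all tested host genes, 0.19 and 0.03. By junction reads Erbb2ip lies at 1.99 and Magi1 and Peli2 at -2.38 and -2.09, and none of them passed.

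Genes that work with the 4 hosts were looked up in 4 lists, and none passed in any of the 3 comparisons of groups. The smallest adjusted p was 0.369 (edgeR), by junction reads for a junction scaffold in the diet comparison. Few genes could be tested by junction reads, so little can be read from that level. They were 8 junction scaffolds, 5 leucine-rich scaffold and ERBB genes and 1 CDC14 and mitotic exit gene. By interval reads 11 of 30 genes of Pellino and Toll-like or interleukin-1 receptor signalling could be tested, 24 of 36 junction scaffolds, 15 of 23 leucine-rich scaffold and ERBB genes, and 14 of 28 CDC14 and mitotic exit genes. High-fat was above ApoE-/- chow for 7 of the 11, 12 of the 24, 10 of the 15 and 4 of the 14, with list medians of 0.043, 0.011, 0.097 and -0.12 on the log2 scale. The median over all host genes was 0.028. High-fat was above C57BL/6J for 5, 12, 7 and 4 of them, with list medians of -0.012, -0.00055, -0.050 and -0.42 and -0.018 over all host genes. ApoE-/- chow was above C57BL/6J for 4, 11, 8 and 5, with list medians of -0.17, -0.17, 0.037 and -0.11 and -0.017 over all host genes. The share called over all host genes was 0.0163% for high-fat against C57BL/6J and 0% for ApoE-/- chow against C57BL/6J.

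Tab2, an adaptor of the kinase TAK1 in interleukin-1 receptor signalling, had 3.17 and 1.32 interval RPM in high-fat, 1.93 and 2.05 in ApoE-/- chow, against 1.18 and 2.26 in C57BL/6J. Cgn, the tight junction protein cingulin, had 16.6 and 11.4 in high-fat, 14.1 and 17.5 in ApoE-/- chow, against 10.6 and 22.5 in C57BL/6J. For Cgn the C57BL/6J libraries spanned the whole range, and for Tab2 all groups overlapped. Dst, a cytoskeletal linker, had 14.1 and 16.1 interval RPM in high-fat, 17.3 and 10.9 in ApoE-/- chow, against 9.57 and 6.78 in C57BL/6J. It was higher in all 4 ApoE-/- libraries, as 10.2% of host genes were by interval RPM, and did not pass (edgeR, adjusted p = 1.00 in both comparisons with C57BL/6J). Cdc14a, the paralogue of Cdc14b, had 13 and 0 junction reads in the high-fat libraries, 0 and 0 in ApoE-/- chow, against 14 and 0 in C57BL/6J. Its junction reads thus came from 1 library of each genotype.

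The host genes most like each of the 4 were found by Pearson's r of log2 junction CPM (TMM scaling) over the 6 libraries, as a description of libraries that differ in junction depth. They were Nek1, Gucy1a2 and Supv3l1 for Cdc14b (r = 0.975, 0.965 and 0.963) and Prim2, Cdk8 and Vim for Peli2 (r = 0.937, 0.880 and 0.871). For Magi1 they were Chordc1, Zmynd8 and Dgki (r = 0.974, 0.969 and 0.959), and for Erbb2ip Setd3, Dnajc1 and Dennd4a (r = 0.986, 0.984 and 0.983). Gucy1a2, a subunit of soluble guanylate cyclase, had 16 and 5 junction reads in the high-fat libraries, 12 and 9 in ApoE-/- chow, against 3 and 0 in C57BL/6J. Setd3, the actin histidine methyltransferase, had 69 and 34 in high-fat, 10 and 16 in ApoE-/- chow, against 39 and 0 in C57BL/6J. Among the 4 hosts themselves r lay between -0.073 for Peli2 with Erbb2ip and 0.73 for Cdc14b with Magi1.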

How the data were processed

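Total RNA of 6 mouse aorta libraries was made into libraries with the NEBNext Ultra RNA kit for Illumina, as the labels' protocols state. Per the file headers, each deposited table gives a count, an RPM and a junction column per circRNA. The deposited count column holds raw counts of reads in the whole interval, junction reads included, and the deposited junction column raw counts of back-splice reads. The deposited RPM values are these counts scaled to 1 total per library, and library totals were computed from them. TopHat and HTSeq, and the builds GRCm38 and mm10, are named in the submitters' processing notes. Back-splice caller and strand setting are not given in the sources used here. Where a library's table did not list a circRNA, 0 was used. RefSeq tables of GRCm38.p6 gave gene bounds and promoter windows; exons were not used here.

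Junction reads per circRNA and per host symbol, and interval reads (count minus junction) per host, were fitted with edgeR 4.0.16 in R 4.3.3 (TMM, robust quasi-likelihood, 3 residual degrees of freedom, all 6 libraries). Features needed at least 5 junction or 10 interval reads in at least 2 libraries. Host sums leave out 2133 circRNAs without a symbol. SEs were computed as the size of the log2 fold change over the square root of F. The edgeR steps of the diet comparison per host were tested on simulated counts, at a fixed spread that was not taken from these libraries. The members, lists and tests were chosen with earlier results of these data known. Named in full were circRNAs with at least 10 junction reads or an end shared with one, up to 4 genes of highest interval level per list and 3 like genes per host; the fullest other intervals were named after their values were seen. Alternatives were library totals as the scale, DESeq2 1.42.0, other read minimums, the ApoE-/- libraries alone, a replicate block and leaving out each library.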

Additional observations from a re-analysis of the deposited data

How the results depend on the processing

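The 8 diet values of the 4 hosts passed under none of the alternatives run. By junction reads Cdc14b changed sign: its log2 difference was 0.68 with library totals as the scale, where the median of all host genes was 0.90 in place of 0.19, and 0.082 with no read minimum. Leaving out 1 library moved it between -0.51 and 0.36, Erbb2ip between 1.44 and 2.81, Magi1 between -4.20 and -1.54, and Peli2 between -8.20 (without high-fat 2, which leaves high-fat at 0) and -1.06 (without high-fat 1). By interval reads Cdc14b lay between -0.12 and 0.17, Peli2 between -0.13 and 0.0014, Magi1 between -0.64 and -0.25 and Erbb2ip between 0.47 and 1.28.

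For ApoE-/- over C57BL/6J, leaving out 1 library moved the junction log2 difference of Cdc14b between 1.92 and 3.01, of Peli2 between -1.34 (without high-fat 2) and 2.21, of Magi1 between 2.87 and 6.17 (without C57BL/6J 1), and of Erbb2ip between 0.27 (without C57BL/6J 2) and 8.34 (without C57BL/6J 1, where C57BL/6J is at 0 and the value is no bound). The 3.01 of Cdc14b also came without C57BL/6J 1, where the median of all host genes was 4.42 in place of 0.14. Cdc14b thus lay below the median host gene there. By interval reads Cdc14b lay between -0.15 and 0.25, Peli2 between -0.22 and -0.046, Magi1 between -0.044 and 0.13 and Erbb2ip between -0.45 and 0.016. With library totals as the scale Cdc14b was at 0.25, Peli2 at 0.044, Magi1 at 0.25 and Erbb2ip at 0.0048.

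Counts of all features called for the diet moved as follows, and the cause was not tested. Host genes by junction reads numbered 0 in place of 1 with library totals, DESeq2, no read minimum, a minimum of 10 reads, the ApoE-/- libraries alone or the replicate block, and 0 to 1 without 1 library. CircRNAs numbered 0 in place of 1 with library totals, DESeq2 or a minimum of 10 reads, 3 with no minimum, and 0 to 3 without 1 library. Host genes by interval reads numbered 2 in place of 0 with library totals, DESeq2 or a minimum of 20 reads, 3 with the ApoE-/- libraries alone, and 0 to 5 without 1 library. In an alternative chosen after seeing the data, Nfkb1 was the single gene of the 4 lists called, by interval reads in both comparisons with C57BL/6J, without C57BL/6J 1 (0 to 1).

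Deviations of same-numbered libraries correlated at 0.078, 0.043 and -0.031 between groups. With 2 libraries per group the deviations mirror each other, so these values cannot show whether replicate numbers pair the libraries. C57BL/6J 2 held 3706 junction reads, which limits what its zeros and single reads can show.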
